A study of Homo sapiens with 6 samples.

Results

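The 10 genes described here are transcription factors and effectors of the integrated stress response (ISR): ATF4, DDIT3 (which encodes CHOP), ATF3, ATF5, CEBPB, CEBPG, TRIB3, PPP1R15A, CHAC1 and NUPR1. They were chosen by symbol, as ATF4, CHOP and their partners and direct effectors, and are 10 of the 60668 genes in the table, of which 28453 had a read. This choice, and that of the gene lists used below, was made with earlier results of these data known. RNA was sequenced from MiaPaCa-2, an established human pancreatic carcinoma line, grown in standard DMEM with 25 mM glucose (control, 3 libraries) or for 48 h in glucose-free DMEM brought to 2.5 mM glucose (low glucose, 3 libraries). The series text describes the replicates as independent and biological. Both media held serum and antibiotics. Glutamine is stated in the study's methods for the standard medium and for the low-glucose medium of other assays, but neither glutamine nor the other amino acids of the glucose-free DMEM are stated for these RNA samples. Plasmocin is stated for the standard medium only. Low glucose and any such difference between the media cannot be told apart, and this applies to the ATF4 targets of amino acid supply as well. The treatment text of the labels gives 2.5 mM for 48 h for all 6 samples, controls included, and the 25 mM of the controls comes from the series text. All cells were of this 1 line, and the labels name no genetic modification.

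Only replicates 1 and 2 of low glucose are tied to a column by the labels. The other 4 columns were placed in a condition by the runs of their names, the remaining low-glucose library is called unnumbered, and the controls are called A, B and C in the order of their depth. Depth ran from 9741183 to 10190154 reads in the controls and from 10595408 to 13733477 in low glucose. Counts of replicates differed by 1.90 to 2.89 chi-square units per gene between low-glucose libraries and by 4.63 to 18.9 between controls, with the largest value between control B and control C, where counting noise alone gives about 1. The epithelial keratins were abundant, KRT8 at 20549 normalized read counts or more in every library and KRT18 at 13148 or more. VIM, a mesenchymal marker that this line is known to express, was at 57844 or more. The keratins were lower in low glucose (log2 fold changes -1.01 and -0.74) and VIM was higher (0.42). CDKN2A, which this line has lost, had no read, and PTPRC, INS, PRSS1, PECAM1 and ALB, markers of other cell types, had at most 3 reads in any library.

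The ISR is a control of protein synthesis. Stress-sensing kinases phosphorylate the translation initiation factor eIF2 on its alpha subunit, which lowers general translation and favours a few mRNAs with upstream reading frames, among them those of ATF4, ATF5, CHOP and PPP1R15A. ATF4 pairs with C/EBP proteins on composite C/EBP-ATF response elements (CARE) and drives genes of amino acid supply, and CHOP, ATF3 and TRIB3 extend or restrain that programme. In pancreatic carcinoma, a tumour with a poor blood supply, the pathway is studied as part of the adaptation to scarce nutrients.

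Promoter sequences were read because the 10 genes share a described regulator. The RefSeq promoter table (GRCh38.p14) held 9 of the 10 genes, in 18 windows of 250 bases before to 50 after an annotated start. NUPR1 was not matched. The windows were searched on both strands for the CARE core TGATGNAA, for the cyclic AMP response element (CRE) TGACGTCA, which reads the same on both strands, and for the ER stress response element (ERSE), CCAAT and CCACG separated by 9 bases. The CARE core was in 3 of the 9 genes (ATF3, CEBPG and CHAC1), which is 16.7% of their windows, and in 3.62% of all 35116 windows in the table. By gene, this is 33.3% of the 9 and 4.46% of all 27305 in the table. The 9 genes had more windows per gene than the whole table, which raises their share by gene. ATF3 and CEBPG had 2 windows each, with the core in 1 of them. Which start these cells use was not tested. The CRE was in PPP1R15A and in 1.85% of all windows. No window of the 9 genes held the ERSE in these exact letters, which was in 0.0769% of all windows. Sites that differ from these letters by a base were not searched for, so a variant ERSE could be present. No window of these genes held both motifs. The sites are shown with their flanks, as the letters on which the search rests, on the strand of the gene and with the motif in capitals. JDP2, a paralog of ATF3, and PPP1R15B, the paralog of PPP1R15A, are shown for comparison.
ATF3: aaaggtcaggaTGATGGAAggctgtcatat
CEBPG: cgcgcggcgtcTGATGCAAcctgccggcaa
CHAC1: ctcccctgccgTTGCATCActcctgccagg
PPP1R15A: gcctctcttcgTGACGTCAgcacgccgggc
JDP2: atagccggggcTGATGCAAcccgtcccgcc
PPP1R15B: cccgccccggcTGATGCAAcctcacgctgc

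All coordinates are on hg38. The ATF3 stretch (chr1:212565205-212565234, plus strand) lies upstream of the gene, with the motif 191 bases before a start. The CEBPG stretch (chr19:33374060-33374089, plus strand) is intronic, with the motif 42 bases before a start. In CHAC1 (chr15:40953251-40953280, plus strand) the motif is on the other strand, in an annotated exon of the gene, 209 bases before a start. The PPP1R15A stretch (chr19:48872352-48872381, plus strand) is in an annotated exon, 58 bases before a start. In JDP2 (chr14:75427995-75428024, plus strand) the motif is in the gene body outside exons, 16 bases before a start, and in PPP1R15B (chr1:204412026-204412055, minus strand) it is 227 bases before a start, in an exon of another gene, ENSG00000288934. CEBPG, JDP2 and PPP1R15B carry the core as TGATGCAA, CHAC1 carries it as TTGCATCA, its reverse complement, and ATF3 as TGATGGAA. A match is a description of these windows and no evidence of binding.

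Of the 10 genes, 9 were higher in low glucose at an adjusted p under 0.05 (limma on log2 of the normalized read count plus 1, Benjamini-Hochberg over 21101 genes), and none was lower. Over all genes tested, 14.7% were called higher, 16.2% lower and 30.9% in either direction. All 10 were higher in every low-glucose library than in every control, which held for 22.1% of all genes tested. The median log2 fold change was 1.48 over the 10 genes and 0.05 over all genes. Because the 10 genes were chosen with earlier results of these data known, these comparisons are descriptions and not independent tests. All 10 passed the filter of a mean of at least 1, and each would have passed it in the controls alone, since the lowest value of any of them in a control was 8.92. In RNA from a whole culture, more cells with a transcript and more of it per cell cannot be told apart.

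**Figure D1:**
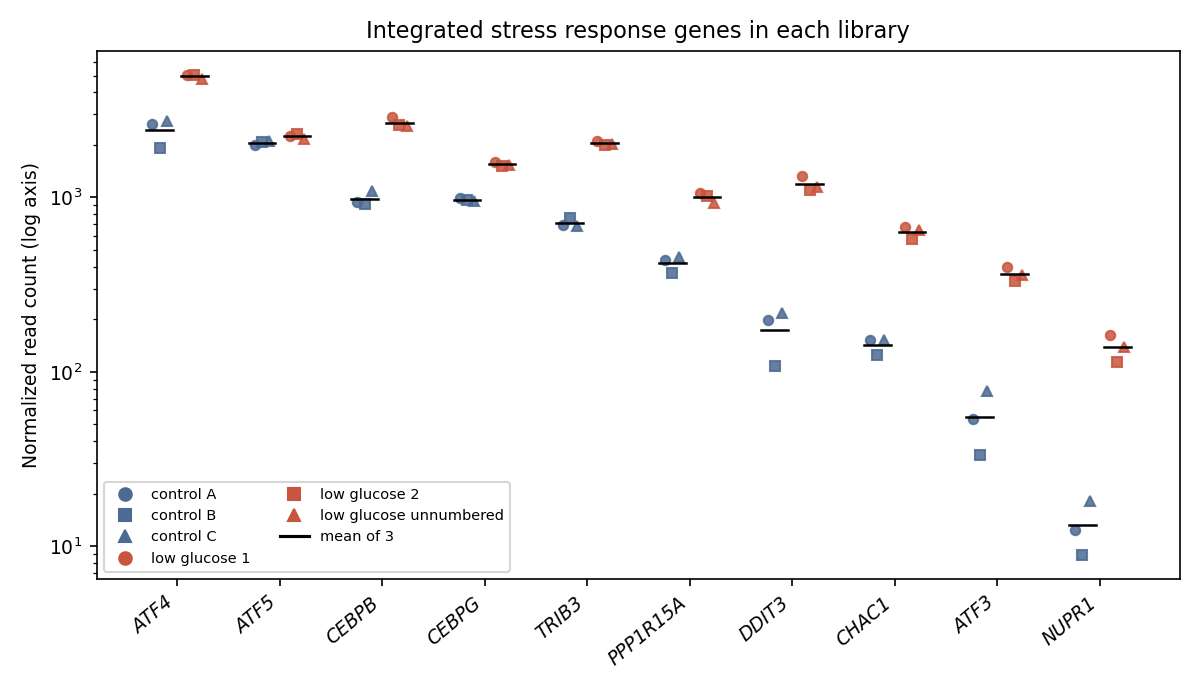
Normalized read count (log axis) of the 10 genes in each of the 6 libraries, controls in blue and low glucose in red, with a bar at the mean of 3. NUPR1 moved from 8.92 to 18.2 in the controls to 114 to 163 in low glucose, and ATF5 from 1988 to 2113 to 2166 to 2304.

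ATF4 (ENSG00000128272.14, chr22:39519695-39522683), the central transcription factor of the pathway, had 2624, 1932 and 2743 normalized read counts in controls A, B and C, and 5051, 5002 and 4784 in low glucose 1, 2 and unnumbered. The low-glucose libraries lay close together, while control B was well under the other controls. The means were 2433 ± 438 and 4946 ± 142 (SD, n = 3), a log2 fold change of 1.04 (SE 0.11, adjusted p = 7.66e-06 by limma). ATF4 is controlled chiefly at translation, so its mRNA is only part of its regulation, and protein was not measured here. Its processed pseudogenes held at most 2 reads in any library.

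ATF5 (ENSG00000169136.11, chr19:49928702-49933935), a related factor whose mRNA is also translated under eIF2 phosphorylation, was the only member that did not pass the test. It had 1988, 2091 and 2113 normalized read counts in the controls and 2241, 2304 and 2166 in low glucose. The conditions did not overlap, but the gap between them was small. The log2 fold change was 0.12 (95% interval -0.04 to 0.27, adjusted p = 0.244 by limma). It was 0.20 when the values were scaled by library size (adjusted p = 0.0445) and 0.33 after quantile normalization (adjusted p = 0.00265), both past the threshold. ATF5 shares 565 bp of exons, 19.5% of its own, with NUP62 on the opposite strand, and NUP62 fell by 0.88 on the log2 scale. Whether the counting used strand is not given in the sources used here, so the part of NUP62 reads in the value of ATF5 was not tested.

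DDIT3 (ENSG00000175197.12, chr12:57516588-57521737) encodes CHOP, a C/EBP family protein linked to cell death under prolonged ER stress. Its normalized read counts were 197, 108 and 216 in the controls and 1330, 1110 and 1155 in low glucose. Control B was again the lowest library, and even the highest control was far under every low-glucose library. The log2 fold change was 2.84 (SE 0.19, adjusted p = 1.45e-07 by limma), the 46th largest of the 21101 genes tested. DDIT3 shares 355 bp of exons, 27.2% of its own, with MARS1 on the opposite strand, a far more abundant transcript that rose by 0.33, and 58 bp with MBD6 (log2 fold change 0.19, adjusted p = 0.148). The call of MARS1 was lost without a variance trend (adjusted p = 0.0858) and without low glucose 1 (adjusted p = 0.0556). The part of MARS1 and MBD6 reads in the value of DDIT3 was not tested either.

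ATF3 (ENSG00000162772.17, chr1:212565334-212620777), an immediate stress-response factor and ATF4 target, had 53.8, 33.4 and 78.1 normalized read counts in the controls and 397, 333 and 358 in low glucose. The controls spread over more than a doubling, and the low-glucose libraries did not. The log2 fold change was 2.77 (SE 0.22, adjusted p = 6.92e-07 by limma), the 54th largest.

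CEBPB and CEBPG are C/EBP proteins that pair with ATF4 and CHOP. CEBPB (ENSG00000172216.6, chr20:50190830-50192668) had 939, 918 and 1092 normalized read counts in the controls and 2894, 2596 and 2574 in low glucose, a log2 fold change of 1.45 (SE 0.086, adjusted p = 4.24e-08 by limma). CEBPG (ENSG00000153879.9, chr19:33373685-33382686) had 990, 972 and 955 in the controls and 1592, 1514 and 1539 in low glucose, a log2 fold change of 0.67 (SE 0.073, adjusted p = 1.00e-05 by limma). Both rose in every low-glucose library, CEBPG by the smaller amount and with the tighter controls. The antisense transcript CEBPB-AS1, which shares 231 bp of exons with CEBPB, had 216 to 335 reads in the controls and 750 to 1099 in low glucose and also rose (log2 fold change 1.53). Reads of CEBPB and CEBPB-AS1 over the shared exons cannot be told apart without a stated strand setting.

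TRIB3 (ENSG00000101255.11, chr20:362835-397559) encodes a pseudokinase that is induced by ATF4 and CHOP and binds ATF4. It had 693, 765 and 684 normalized read counts in the controls and 2108, 1992 and 2026 in low glucose. It was the only member with its highest control value in control B. The log2 fold change was 1.52 (SE 0.077, adjusted p = 1.27e-08 by limma).

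PPP1R15A (ENSG00000087074.8, chr19:48872212-48876059), also called GADD34, targets a phosphatase to eIF2 and so restores translation. Its normalized read counts were 437, 369 and 454 in the controls and 1056, 1020 and 933 in low glucose. The 3 low-glucose libraries were all above the highest control, with a log2 fold change of 1.26 (SE 0.096, adjusted p = 4.43e-07 by limma).

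CHAC1 (ENSG00000128965.13, chr15:40952962-40956512) encodes an enzyme that degrades glutathione and is a known target of ATF4. It had 151, 125 and 152 normalized read counts in the controls and 672, 577 and 649 in low glucose. Both sets of replicates were tight next to the gap between them. The log2 fold change was 2.14 (SE 0.11, adjusted p = 1.42e-08 by limma), the 173rd largest.

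NUPR1 (ENSG00000176046.8, chr16:28532708-28539008), a small chromatin-associated stress protein found in injured pancreas, changed most. Its normalized read counts were 12.3, 8.92 and 18.2 in the controls and 163, 114 and 139 in low glucose, from 8 to 17 reads and from 115 to 184 reads. The log2 fold change was 3.34 (SE 0.26, adjusted p = 5.37e-07 by limma), the 14th largest. It also had the fewest reads of the 10 in both conditions, and its interval (2.78 to 3.90) was the widest of the 10. NUPR1 shares 909 bp of exons, 16.5% of its own, with the noncoding gene ENSG00000289754 on the same strand. That gene is not among the genes counted, so the part of its reads in the value of NUPR1 was not tested.

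**Figure D2:**
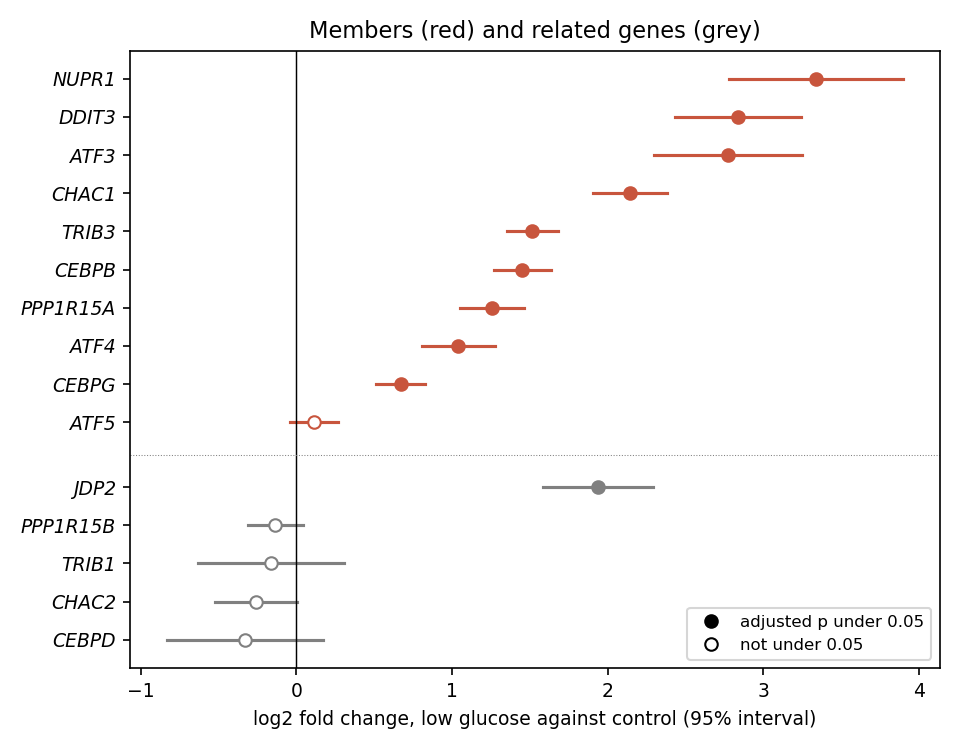
Log2 fold change of low glucose against control with its 95% interval for the 10 genes (red) and 5 related genes (grey), filled where the adjusted p was under 0.05. The members run from 0.12 for ATF5 to 3.34 for NUPR1, and of the related genes JDP2 (1.94) alone passed.

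Levels of different genes were compared per length, as TPM, the reads of a gene per base of its canonical transcript scaled to the same total in every library. In control, ATF4 had the highest level, 310.7 ± 50.1 TPM (SD, n = 3), then ATF5 (187 ± 6.03), CEBPB (97.0 ± 6.41), TRIB3 (55.1 ± 4.74) and CEBPG (47.4 ± 2.07). DDIT3 (34.8 ± 10.9) and PPP1R15A (32.4 ± 2.82) overlapped, and CHAC1 (17.0 ± 1.58), ATF3 (5.12 ± 1.94) and NUPR1 (0.448 ± 0.147) followed. Neighbours in this order other than DDIT3 and PPP1R15A did not overlap between libraries.

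In low glucose the order was ATF4 (617.8 ± 12.4 TPM), CEBPB (259 ± 16.7), DDIT3 (235 ± 22.9), ATF5 (198 ± 3.95), TRIB3 (154 ± 4.88), PPP1R15A (75.7 ± 4.17), CHAC1 (73.8 ± 6.28), CEBPG (73.6 ± 2.13), ATF3 (33.2 ± 3.04) and NUPR1 (4.64 ± 0.835). CEBPB and DDIT3 overlapped, as did PPP1R15A with CHAC1 and CHAC1 with CEBPG. ATF5, next to ATF4 in control, had CEBPB and DDIT3 above it in low glucose. CEBPG went from the fifth to the eighth place although its own level rose. With the union of all exons as the length, CEBPG (72.3 TPM) stood above TRIB3 (65.4 TPM) in control and above CHAC1 and PPP1R15A in low glucose, and CEBPB no longer overlapped DDIT3. For NUPR1 the canonical transcript (5291 bp) and the union (5508 bp) are nearly equal in length. Its TPM would be higher with a shorter transcript, which was not tested.

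**Figure D3:**
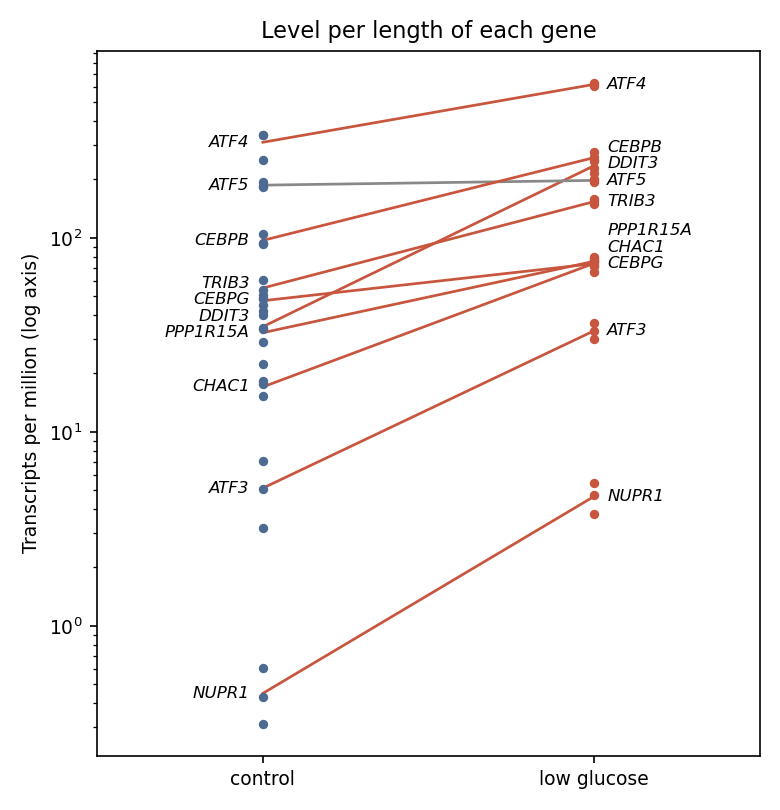
TPM (log axis) of the 10 genes in control and low glucose, points being libraries and lines joining the means, red where the adjusted p was under 0.05 and grey for ATF5. DDIT3 went from 34.8 to 235 TPM and ended above ATF5, at 198 TPM.

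Whether members moved by different amounts was examined with 10 log2 ratios within a library, which hardly depend on the scaling. With 3 against 3 libraries the exact permutation test (two-sided) cannot go below p = 0.1, and all 10 ratios reached that value (adjusted over the 10 pairs, 0.1), so none could pass 0.05. In all 10 the libraries of the conditions did not overlap. Relative to ATF4, DDIT3 was higher in low glucose by 1.80 (SE 0.17), CHAC1 by 1.10 (SE 0.10) and TRIB3 by 0.48 (SE 0.21), and ATF5 was lower, with a difference of -0.92 (SE 0.17). For TRIB3 to ATF4 the conditions nearly touched: the highest control ratio was -1.34 (log2) and the lowest in low glucose -1.33.

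The paralogs gave the other side of this comparison. CHAC1 against CHAC2, both glutathione-degrading enzymes, differed by 2.40 (SE 0.080) between conditions, CEBPB against CEBPD by 1.78 (SE 0.27), TRIB3 against TRIB1 by 1.68 (SE 0.27), PPP1R15A against PPP1R15B by 1.39 (SE 0.16), ATF3 against JDP2 by 0.83 (SE 0.19) and CEBPB against CEBPG by 0.78 (SE 0.097). PPP1R15B, the constitutive counterpart of PPP1R15A, had 860, 891 and 799 normalized read counts in the controls and 728, 799 and 795 in low glucose (log2 fold change -0.13, 95% interval -0.31 to 0.04). CHAC2 had a log2 fold change of -0.26 (95% interval -0.52 to 0.01), TRIB1 of -0.16 (-0.63 to 0.31) and CEBPD of -0.33 (-0.83 to 0.17), and none of the 4 passed.

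JDP2, a repressor that binds the same sites as ATF3, was the exception, with 69.5, 47.9 and 74.9 normalized read counts in the controls and 250, 255 and 229 in low glucose (log2 fold change 1.94, adjusted p = 1.2e-06 by limma). JDP2 and PPP1R15B both hold the core TGATGCAA shown above, and JDP2 rose while PPP1R15B did not pass the test. Of 9 paralogs listed, 7 were tested and 1 was called, against 30.9% of all genes. Without control B, CEBPD was called as well (log2 fold change -0.52, adjusted p = 0.0438).

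The libraries of a condition often kept the same place across the 10 genes. Control B was the lowest control in 7 of the 10, against 34.9% of all genes tested, and control C was the highest in 8, against 33.6% of all genes. The members' median deviation from the condition mean was -0.18 (log2) in control B and 0.14 in control C, and over all genes it was 0.01 and 0. ATF3 (-0.62 and 0.58), DDIT3 (-0.62 and 0.37) and NUPR1 (-0.46 and 0.49) deviated most. In low glucose the deviations were smaller, and low glucose 1 was the highest library in 9 of the 10, against 32.3% of all genes. What sets the position of these libraries was not tested.

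**Figure D4:**
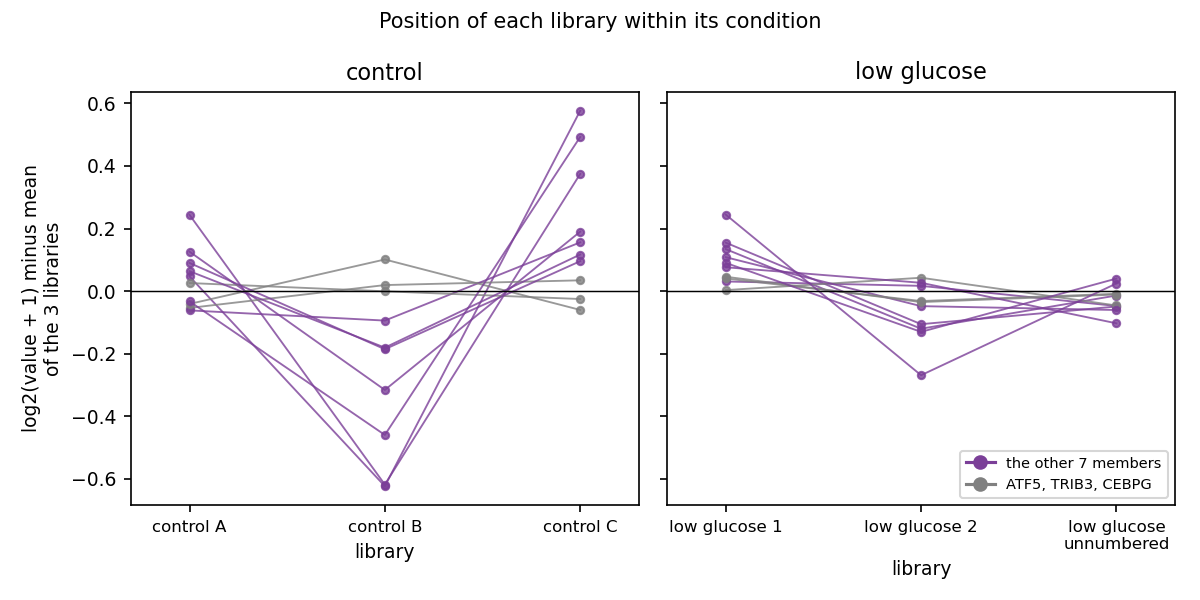
Deviation of each library from the mean of its condition, in log2(value + 1), for the 10 genes, with ATF5, TRIB3 and CEBPG in grey and the other 7 in purple. The purple lines dip at control B, to -0.62 for DDIT3 and ATF3, and stay within 0.27 of the mean in low glucose.

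The fold changes moved with these libraries and the calls did not. Without control B the log2 fold change of DDIT3 was 2.53 and without control C it was 3.02. For ATF3 these were 2.46 and 3.06, for ATF4 0.88 and 1.14, and for NUPR1 3.11 and 3.59. TRIB3, CEBPB and CEBPG moved by less, over ranges of 1.49 to 1.57, 1.40 to 1.53 and 0.65 to 0.69. All 9 called members stayed called with each of the 6 libraries left out.

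Upstream of ATF4, the eIF2 kinases and their signal did not move one way. Of 9 listed genes, 3 were called higher and 4 lower, against 14.7% and 16.2% of all genes, with a median log2 fold change of -0.13. EIF2AK3, which encodes the ER-resident kinase PERK, had 164, 140 and 151 normalized read counts in the controls and 416, 326 and 382 in low glucose (log2 fold change 1.29, adjusted p = 2.21e-06 by limma). GCN1, the activator of the amino-acid-sensing kinase GCN2, fell by 0.52 (adjusted p = 0.00137), and EIF2S1, which encodes eIF2 alpha itself, fell by 0.52 (adjusted p = 1.26e-04). GCN1 lost its call without a variance trend (adjusted p = 0.0597).

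The other genes of that list were named after their values were seen, except PPP1R15B, which was chosen for the ratios and did not pass. OMA1 (log2 fold change 0.51) and DELE1 (0.30), which relay mitochondrial stress to the kinase HRI, were called higher, and lost the call without a variance trend (adjusted p = 0.0507 and 0.0803 by limma). Without the unnumbered low-glucose library both lost it as well (adjusted p = 0.051 and 0.0729 by limma), and DELE1 also without low glucose 2 (0.0699). EIF2AK2, which encodes PKR, and EIF2AK4, which encodes GCN2, had log2 fold changes of -0.25 and -0.21 and passed only narrowly (adjusted p = 0.0429 and 0.0493 by limma). EIF2AK1, which encodes HRI, did not pass (-0.09, adjusted p = 0.341). With scaling by library size, EIF2AK2 and EIF2AK4 had adjusted p of 0.139 and 0.203, and both lost the call with most of the libraries left out in turn. Without the unnumbered low-glucose library 3 genes of this list were called, and without low glucose 2, 4. The calls concern mRNA, and kinase activity was not measured.

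Among 6 other mRNAs described as translated through upstream reading frames, IFRD1 (log2 fold change 0.66) and IBTK (0.60) rose and SLC35A4 fell by 0.52. SLC7A1 (0.17), EPRS1 (-0.07) and PPP1R15B (-0.13) did not pass. SLC7A1, a cationic amino acid transporter, was called without control B (0.30, adjusted p = 2.63e-04) and after quantile normalization (0.36).

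ATF4 targets of amino acid and one-carbon metabolism were mostly higher. Of 11 enzymes, 10 were called higher and 1 lower, against 14.7% and 16.2% of all genes, with a median log2 fold change of 0.71. ALDH1L2, a mitochondrial folate enzyme, had 23.5, 17.8 and 27.8 normalized read counts in the controls and 172, 183 and 146 in low glucose (log2 fold change 2.82, adjusted p = 2.57e-07 by limma). CTH, which makes cysteine, rose by 1.87, and ASNS, asparagine synthetase, by 1.09. ALDH18A1, the enzyme of proline synthesis that was lower and was named after its value was seen, had a log2 fold change of -0.28 (adjusted p = 0.0141). It lost its call after quantile normalization (-0.09, adjusted p = 0.378), without a variance trend (adjusted p = 0.0949) and under scaling by library size (adjusted p = 0.0595). The call was also lost without control A, low glucose 1 or low glucose 2 (adjusted p = 0.0580 to 0.0812).

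Of 8 amino acid transporters 5 were called higher and none lower (14.7% and 16.2% of all genes), with a median of 0.68. The neutral amino acid transporter SLC1A4 rose by 1.60, the glycine transporter SLC6A9 by 1.31 and the cystine carrier SLC7A11 by 1.31. All 8 were called without control B. Of 11 tRNA synthetases 6 were called higher and none lower, beside the same shares of all genes, with a median of 0.20, and AARS1 (0.75), SARS1 (0.75) and CARS1 (0.55) rose most. Regulators of mTORC1 and other stress genes, 7 in all, were each called higher (14.7% of all genes), with a median of 1.55. Among them DDIT4, an inhibitor of mTORC1, had 997, 915 and 1106 normalized read counts in the controls and 3906, 3725 and 3498 in low glucose (log2 fold change 1.88), and NDRG1 (1.59) and VLDLR (1.56) followed.

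**Figure D5:**
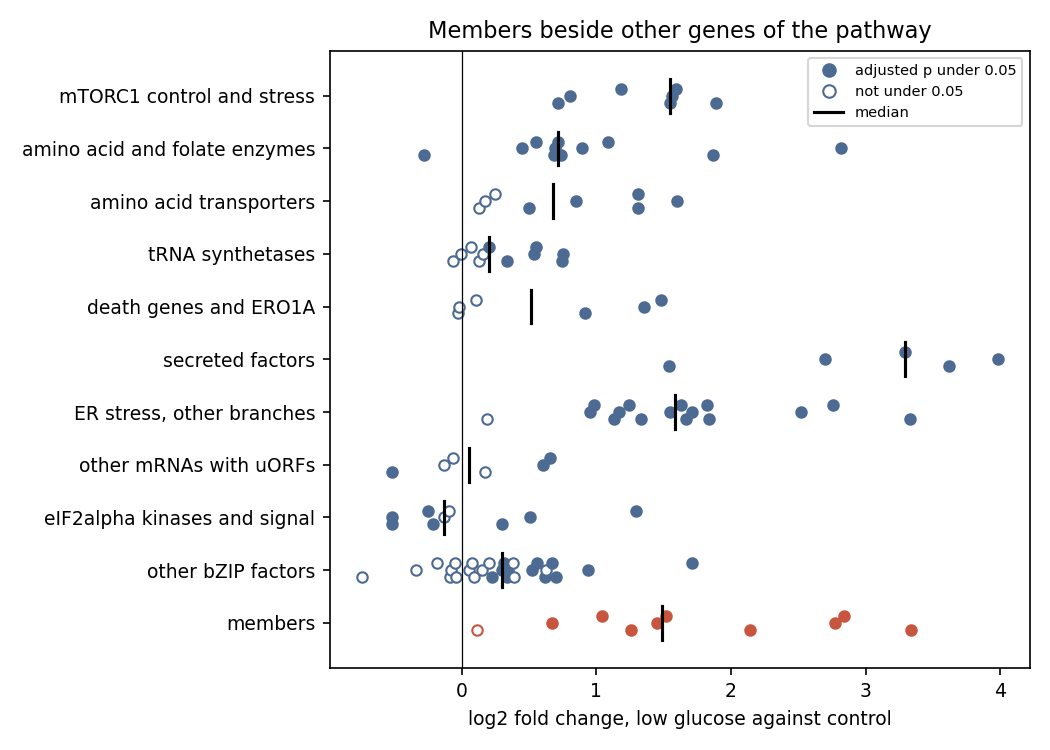
Log2 fold change of each tested gene of the lists (blue) and of the 10 members (red), filled where the adjusted p was under 0.05, with the median of each list as a bar. Medians of the lists drawn run from -0.13 for the eIF2 kinases and signal to 3.29 for the secreted factors, and the median of the members is 1.48.

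Of 6 genes listed as downstream of CHOP, 3 were called higher and none lower, against 14.7% and 16.2% of all genes. Whether CHOP regulates them in these cells was not tested. BBC3 (1.48) and PMAIP1 (1.36), which encode the death proteins PUMA and NOXA, and TNFRSF10B (0.91), which encodes the death receptor DR5, rose. The other 3 had log2 fold changes near 0: BCL2L11 of -0.02 (95% interval -0.26 to 0.22), BCL2, which CHOP is known to repress, of -0.03 (-0.35 to 0.29), and the ER oxidase ERO1A of 0.11 (-0.07 to 0.29). ERO1A was called after quantile normalization (0.28, adjusted p = 0.0202).

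Of 6 secreted factors linked to the pathway, the 5 tested were called higher, against 14.7% of all genes, and STC2 had no read in any library. GDF15, a circulating stress cytokine, had 20.2, 4.46 and 10.7 normalized read counts in the controls and 176, 169 and 177 in low glucose (log2 fold change 3.98, SE 0.36, adjusted p = 2.06e-06 by limma). Its log2 fold change was above that of all 10 members, but its 95% interval (3.21 to 4.75) overlapped that of NUPR1 (2.78 to 3.90). GDF15 had only 4 to 18 reads in the controls, and its log2 fold change ran from 3.47 to 4.45 with a library left out. INHBE rose by 3.29 and VEGFA by 1.54. ADM2 had 3 reads in the controls and 76 in low glucose, a ratio relative to depth of 21.7 (95% counting interval 7.13 to 107), and FGF21 had 3 and 39 reads, a ratio of 11.1 (3.53 to 56.2). Both intervals cover counting error only.

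PERK feeds the ISR as 1 of 3 branches of the ER stress response. Genes listed for the other 2, under ATF6 and IRE1 with XBP1, were also higher. Which branch raised each of them was not tested. Of 16 listed, 15 were called higher and none lower, against 14.7% and 16.2% of all genes, with a median log2 fold change of 1.59, next to 1.48 for the members. HERPUD1 had 399, 370 and 458 normalized read counts in the controls and 4419, 3994 and 3920 in low glucose (log2 fold change 3.33, SE 0.090, adjusted p = 2.46e-11 by limma). DNAJB9 rose by 2.76 and SDF2L1 by 2.52, and HSPA5, the main ER chaperone, named after its value was seen, by 1.66. ATF6 itself, also named afterwards, did not pass (0.19, adjusted p = 0.0815) but was called under scaling by library size (adjusted p = 0.0136), quantile normalization, edgeR and without control B. The exact letters of the ERSE, not found in the members' windows, were in 5 of these 16 genes. The CARE core was in 1 of them, HERPUD1.

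Of 27 other bZIP transcription factors tested, 12 were called higher and none lower, against 14.7% of all genes, and the median log2 fold change was 0.30. CREB3L2, an ER-anchored factor, rose by 1.71, MAFF by 0.94 and NFIL3 by 0.70.

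Across the promoter table, motif shares varied from list to list. The CARE core, in 4.46% of all genes of the table, was in 7 of 10 tRNA synthetases, 4 of 7 transporters and 3 of 6 mRNAs with upstream reading frames. It was in 1 of 6 amino acid enzymes, 1 of 8 genes of the eIF2 list and 1 of 4 secreted factors. It was also in 1 of 16 ER stress genes and 2 of 24 other bZIP factors. None of the 5 mTORC1 and stress genes or the 5 genes of the CHOP list with an entry held it. The lists share genes, so these counts are not independent. SLC7A1 counts for the transporters and for the mRNAs with upstream reading frames, and PPP1R15B for those mRNAs and the eIF2 list. Both were among the genes with the core that did not pass the main test. Of the 12457 tested genes with any entry, 16.7% were called higher and 20.8% lower. With the CARE core these were 22.7% and 12.8% of 343 genes, and with the CRE 17.4% and 24% of 455. With the ERSE they were 82.4% and 0% of 17 genes, 5 of which belong to the ER stress list. These shares were not tested. Among the 9 members with an entry, log2 fold changes with the CARE core were 0.67 (CEBPG), 2.14 (CHAC1) and 2.77 (ATF3), and those without it ran from 0.12 (ATF5) to 2.84 (DDIT3), so the ranges overlapped.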

How the data were processed

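Per the labels and the study's methods, the authors trimmed reads with Trim Galore, mapped them with STAR 2.7.0e to hg38 and compared conditions with DESeq2. RSEM is in the study's software list without a stated role, and the strand setting and annotation used to count are not given in the sources used here, though the library kit marks strand. What the authors deposited is a count-like signal, each gene's count after division by its library's size factor. Dividing by the smallest step of a library returned whole reads for 100% of its values (tolerance 0.01).

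Genes with a mean of 1 or more (21101) were fitted on log2(value + 1) with limma 3.58.1 (lmFit, eBayes with trend, R 4.3.3), two-sided, with Benjamini-Hochberg adjustment and a threshold of 0.05. Ratios were compared with exact permutation tests. Alternatives were library-size, TMM and quantile scaling, no filter, a mean of at least 10, a pseudocount of 0.1, no variance trend, edgeR 4.0.16 and DESeq2 1.42.0 on the recovered reads, a minimum log2 fold change of 1, and leaving out each library. Scripts were tested on simulated data. Loci, exons and lengths come from Gencode on hg38, matched by identifier (99.5% of identifiers). Promoters come from RefSeq (GRCh38.p14).

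The members, lists and alternatives were chosen with earlier results of these data known. Named were the members, the paralogs in the ratios, in each list up to 3 called genes with the largest change and every gene of lists of 6 or fewer, and genes with reads and exons opposite a member. The 3 libraries per condition limit precision.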

Additional observations from a re-analysis of the deposited data

How the results depend on the processing

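All 9 called members kept their direction, and their call under every other scaling, filter, pseudocount, test and set of libraries, with ATF4 nearest to the threshold (adjusted p = 0.0147 by limma without a variance trend). All 10 ratios kept their direction in the alternatives run. No paired analysis was possible because replicate numbers are missing for 4 of the 6 columns. The low-glucose libraries were deeper than the controls, and genes with few reads, such as NUPR1 and FGF21, had wide intervals.

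Over all genes, 6528 were called (3111 higher and 3417 lower), and 4090 without a variance trend, 1392 with a log2 fold change of at least 1, and 4319 to 7251 with a library left out (4319 without low glucose 1). With library-size scaling the split was 3933 higher and 2646 lower, where the median log2 fold change of well-covered genes was 0.06 in place of -0.02. On the recovered reads edgeR called 6554 genes and DESeq2 5486.

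With a log2 fold change of at least 1 required, 8 members stayed called (CEBPG did not), 1 of the eIF2 list, 0 of the mRNAs with upstream reading frames, 3 enzymes, 3 transporters, 0 tRNA synthetases and 1 other bZIP factor. Without a variance trend 2 of the eIF2 list were called. Quantile normalization called 8 transporters. With a library left out, calls ranged from 1 to 2 for paralogs, 3 to 7 for the eIF2 list, and 5 to 8 for transporters.

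Some log2 fold changes near 0, none of them called, changed sign. With library-size scaling EPRS1 was 0.0126, BCL2L11 0.0595 and BCL2 0.0497. Quantile normalization gave 0.1175 for EPRS1 and 0.0867 for EIF2AK1, and edgeR gave 0.0109 for BCL2L11. With a library left out, TRIB1 ranged from -0.29 to 0.0844, BCL2L11 from -0.11 to 0.0577 and BCL2 from -0.18 to 0.0809. Of the log2 fold changes recomputed, 900 kept direction and side of the threshold, 35 lost the call, 11 gained it and 12 changed sign. The cause was not tested.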
